A study of Mus musculus with 2 samples.

Results

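The 33 genes described here are genes that mature astrocytes of the mouse brain are known for, out of 55536 genes in the deposited gene table. They were chosen by symbol, and each symbol matched 1 gene: 7 encode channels, gap junction and junction proteins, 5 transporters, 4 receptors, 6 secreted proteins, 5 metabolic enzymes, 3 other intracellular proteins and 3 transcriptional regulators. Their levels were read in ribosome-reduced total RNA of the left cerebral cortex of 2 adult female B6CASTF1/J mice, F1 hybrids of C57BL/6J and CAST/EiJ, aged 8 to 10 months. Each animal gave 1 library, made from 300 ng of RNA with ERCC spike-ins added: replicate 2 is animal 5 and replicate 1 is animal 1. The labels name no treatment and no second condition, and both libraries fall into 1 group. The animals are told apart by number only, since their donor entry is identical, and a difference between them carries neither a replicate check nor a p-value.

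Astrocytes are glial cells that tile the cortex. With their end-feet they cover blood vessels, they take up potassium, glutamate and water released around synapses, and they are joined to each other by gap junctions. They also secrete proteins that shape synapses and carry enzymes of folate, lipid and amino acid metabolism. In whole tissue, fewer astrocytes and less RNA per astrocyte cannot be told apart, and several of the genes are also used by other cells of the cortex.

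The genes were spread over 18 chromosomes, with no more than 4 on any of them. Upstream sequences of 5 promoters are shown for the genes whose level or start choice is described in detail below: the 2 astrocyte connexins, of which Gja1 is a defining marker and Gjb6 is 1 of the 3 genes past 1.2-fold between the animals in counts scaled by the TMM method, and 2 genes with alternative starts, Bmpr1b and Cldn10. Each is the 250 bases just before a RefSeq transcript start of the mouse build mm10, written 5′ to 3′ on the gene's strand. Capitals mark letters that match a motif searched on both strands, here the SOX core (ACAATG or ACAAAG) or the TATA box (TATAAA, whose 2 orientations overlap in the first Bmpr1b sequence).
Gja1, chr10:56377050-56377299, plus strand: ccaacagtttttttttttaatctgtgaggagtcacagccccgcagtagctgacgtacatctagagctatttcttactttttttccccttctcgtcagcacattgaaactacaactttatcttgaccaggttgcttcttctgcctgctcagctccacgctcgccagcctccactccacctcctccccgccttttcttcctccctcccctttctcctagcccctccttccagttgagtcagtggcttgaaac
Gjb6, chr14:57133612-57133861, minus strand: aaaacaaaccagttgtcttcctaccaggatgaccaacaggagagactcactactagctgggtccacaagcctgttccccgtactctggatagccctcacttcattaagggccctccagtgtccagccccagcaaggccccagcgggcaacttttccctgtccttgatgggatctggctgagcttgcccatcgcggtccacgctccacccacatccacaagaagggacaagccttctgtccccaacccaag
Bmpr1b, middle start, chr3:141982265-141982514, minus strand: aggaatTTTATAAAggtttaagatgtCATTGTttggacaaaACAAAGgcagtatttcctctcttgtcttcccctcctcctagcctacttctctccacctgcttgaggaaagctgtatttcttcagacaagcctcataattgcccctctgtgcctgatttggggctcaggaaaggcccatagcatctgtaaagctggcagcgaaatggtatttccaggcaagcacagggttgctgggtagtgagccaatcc
Bmpr1b, downstream start, chr3:141931589-141931838, minus strand: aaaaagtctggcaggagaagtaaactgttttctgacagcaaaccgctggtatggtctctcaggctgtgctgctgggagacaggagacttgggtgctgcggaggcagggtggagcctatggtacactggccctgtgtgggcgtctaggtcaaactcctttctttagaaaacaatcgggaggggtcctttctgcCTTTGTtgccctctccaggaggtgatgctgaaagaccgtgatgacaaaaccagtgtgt
Cldn10, upstream start, chr14:118787621-118787870, plus strand: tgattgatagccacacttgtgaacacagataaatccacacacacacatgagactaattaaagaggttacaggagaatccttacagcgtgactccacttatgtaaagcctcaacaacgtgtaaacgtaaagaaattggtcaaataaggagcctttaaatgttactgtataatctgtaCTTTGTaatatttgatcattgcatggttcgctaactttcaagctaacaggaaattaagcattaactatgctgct

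RefSeq promoter windows of 300 bases (250 before and 50 after a start) were at hand for 29 of the 33 genes. A SOX core was found in the windows of 9 of the 29 (31.0%), against 29.0% of 17492 protein-coding genes. The short site of nuclear factor I, TTGGCA, occurred in 5 of them (17.2%), Atp13a4, Etnppl, Fam107a, Hepacam and S100b, against 15.2% of all, and its full palindromic site in 0 of 29, against 7 of all genes. A TATA box was present in 4 (13.8%), Bmpr1b, Ndrg2, Slc25a18 and Slco1c1, against 14.8% of all. In these letters the astrocyte promoters held the motifs about as often as promoters in general. Their median GC content was 54.0%, against 56.3% over all windows, and their median number of CpG dinucleotides per window was 8.5, against 13.0. A match of letters is a description and not a binding site.

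Every one of the 33 genes was present at 1 TPM or more in both animals, where TPM is the deposited level per transcript length, scaled to the same total over all features in each library. Of 22015 nuclear protein-coding genes, 58.9% met the same limit. All 33 also passed 5 TPM. The library totals were 30166261 counts in genes for replicate 2 and 28252339 for replicate 1, of which the 33 genes took 126564 and 116249, or 0.42% and 0.411%. Their own counts lay between 258 and 39717 in a library, so none rests on a few reads.

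Aqp4 and Gja1 are the defining markers of the list. The labels name a tissue and both genes belong to the list, so their levels are a description and not a check. Aqp4, the water channel of astrocyte end-feet on chromosome 18, had 41.89 TPM in replicate 2 (2678 counts, credibility bounds 38.14 to 43.38) and 40.87 TPM in replicate 1 (2676 counts, bounds 36.92 to 42.3). Those bounds are the deposited limits of the quantification model's own estimate, at a level that is not stated. Gja1, which encodes connexin 43, the main gap junction protein of astrocytes, had 91.82 TPM (5138 counts, bounds 87.48 to 94.92) in replicate 2 and 89.54 (4824 counts, bounds 85.3 to 94.76) in replicate 1. Both markers were well expressed, and the bounds of the 2 animals overlapped for each. The ratio of Gja1 to Aqp4 was 2.19 in replicate 2 and 2.19 in replicate 1.

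The median of the 33 genes was 41.34 TPM in replicate 2 and 40.87 in replicate 1, against a median of 16.53 TPM over the 12958 detected protein-coding genes. Of the 33, 24 lay above that median and 9 above the 90th percentile of detected genes. The list was uneven: its highest gene had 148 times the mean TPM of its lowest. Sparcl1, Ndrg2 and Ttyh1 alone held 54.4% of the summed TPM of the list in replicate 2 and 52.4% in replicate 1. Ranked by mean TPM, 15 of the 32 neighbouring pairs had animals whose values overlapped, so the fine order is not resolved.

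**Figure D1:**
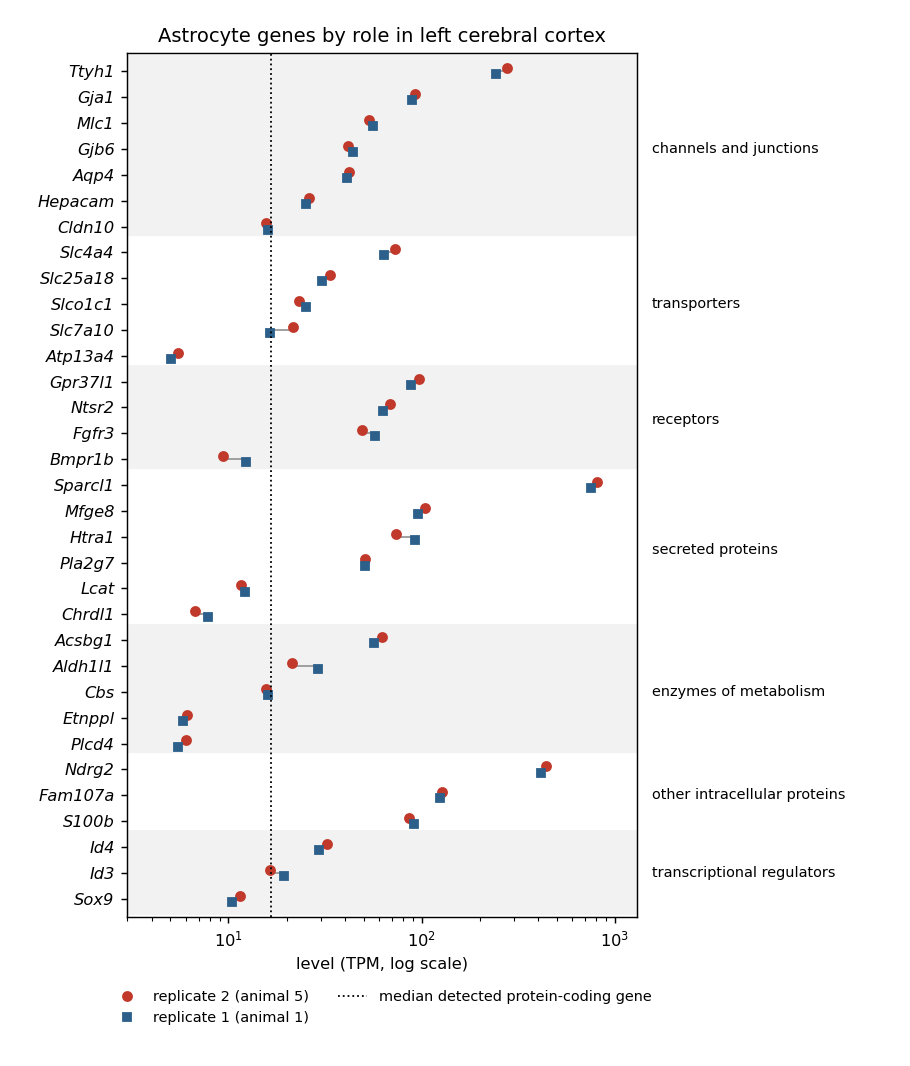
Level of each of the 33 genes in TPM (log scale) in replicate 2 (circles) and replicate 1 (squares), grouped by role, with the median detected protein-coding gene of 16.53 TPM as a dotted line. The 2 animals lie close together at most genes, while Aldh1l1, Slc7a10, Bmpr1b and Htra1 differ by more than 1.2-fold in TPM. The genes spread from about 5 TPM (Atp13a4, Plcd4, Etnppl) to 808.8 TPM (Sparcl1 in replicate 2).

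Among the 7 genes of channels and junctions the highest was Ttyh1, a tweety-family membrane protein, with 277.0 TPM (10712 counts, bounds 255.9 to 287.8) in replicate 2 and 241.2 (8955 counts, bounds 220.1 to 251.5) in replicate 1. Its bounds did not overlap between the animals. The lowest was Cldn10, a claudin of tight junctions, with 15.68 TPM (427 counts, bounds 13.37 to 17.03) in replicate 2 and 16.04 (417 counts, bounds 13.79 to 17.39) in replicate 1. Gap junction transcripts came from 2 connexins. Gjb6, which encodes connexin 30, had 41.34 TPM (1063 counts, bounds 35.23 to 46.21) in replicate 2 and 44.17 (1174 counts, bounds 38.36 to 48.72) in replicate 1. Gja1 exceeded it 2.22-fold in replicate 2 and 2.03-fold in replicate 1 in the gene table, and 3.2-fold and 2.47-fold in the second transcript table, so connexin 43 transcripts were the more abundant in both animals and both tables.

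Mlc1 and Hepacam encode a pair of partner proteins of astrocyte end-feet, whose human counterparts are mutated in a leukoencephalopathy with subcortical cysts. Mlc1 had 53.64 TPM in replicate 2 and 56.08 in replicate 1. Hepacam had 26.05 TPM in replicate 2 and 25.17 in replicate 1. The ratio of Mlc1 to Hepacam was 2.06 in replicate 2 and 2.23 in replicate 1, against 1.87 and 2.05 by the second table.

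The transporters covered a wide range. Slc4a4, the electrogenic sodium bicarbonate cotransporter, led with 72.75 TPM (7407 counts, bounds 65.91 to 75.49) in replicate 2 and 63.64 (6322 counts, bounds 56.97 to 66.41) in replicate 1. Slc25a18, a mitochondrial glutamate carrier, had 33.67 TPM in replicate 2 and 30.65 in replicate 1. Slco1c1, a thyroid hormone transporter that brain endothelium also uses, had 23.26 TPM in replicate 2 and 25.07 in replicate 1. Below these stood the amino acid exchanger of small neutral amino acids, Slc7a10, with 21.53 TPM in replicate 2 and 16.33 in replicate 1. Atp13a4, a P-type ATPase and the lowest of all 33 genes, had 5.49 TPM (303 counts, bounds 4.975 to 8.203) in replicate 2 and 5.06 (295 counts, bounds 4.886 to 7.345) in replicate 1. Only Slc7a10 of these 5 had bounds that did not overlap between animals, with replicate 2 the higher.

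Of the 4 receptors, 3 were high. Gpr37l1, a G protein-coupled receptor of glia, had 97.21 TPM (3976 counts) in replicate 2 and 87.74 (3453 counts) in replicate 1. The model's bounds were 90.79 to 96.6 in replicate 2 and 81.62 to 87.24 in replicate 1. Its deposited TPM lay just above its bounds in both libraries. Bounds and TPM are separate deposited columns, and why they part was not tested. The TPM of Sparcl1 also lay above its bounds in both libraries, and that of Mlc1 in replicate 1. Ntsr2, a neurotensin receptor, had 68.85 TPM in replicate 2 and 63.23 in replicate 1. Fgfr3, a fibroblast growth factor receptor, had 48.84 TPM in replicate 2 and 57.43 in replicate 1. Bmpr1b, a type I receptor for bone morphogenetic proteins, was far below them, with 9.34 TPM (733 counts, bounds 8.09 to 10.01) in replicate 2 and 12.28 (793 counts, bounds 10.73 to 13.01) in replicate 1.

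Secreted proteins held the highest gene of the list. Sparcl1, a matrix protein that promotes synapse formation, had 808.8 TPM (39717 counts, bounds 771.1 to 787.8) in replicate 2 and 749.0 (35391 counts, bounds 712.7 to 728.9) in replicate 1. Mfge8, a bridging protein of phagocytosis, had 103.5 TPM in replicate 2 and 95.60 in replicate 1. Htra1, a secreted serine protease, had 73.67 TPM (2444 counts, bounds 68.42 to 75.26) in replicate 2 and 92.02 (2998 counts, bounds 85.89 to 93.66) in replicate 1. It was the one secreted protein that was lower in replicate 2 with bounds that did not overlap between the animals. Pla2g7, the platelet-activating factor acetylhydrolase, had 50.68 TPM in replicate 2 and 50.63 in replicate 1. Lcat, which esterifies cholesterol on lipoproteins, had 11.57 TPM in replicate 2 and 12.11 in replicate 1. At the low end stood Chrdl1, a binder of bone morphogenetic proteins, with 6.70 TPM (407 counts, bounds 5.791 to 7.711) in replicate 2 and 7.85 (420 counts, bounds 6.542 to 8.847) in replicate 1.

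The metabolic enzymes had the lowest median of the 7 roles, 15.68 TPM in replicate 2 and 16.05 in replicate 1. Acsbg1, a long-chain acyl-CoA synthetase, stood apart with 62.27 TPM (3225 counts, bounds 58.62 to 63.76) in replicate 2 and 56.66 (2790 counts, bounds 53.02 to 58.32) in replicate 1. Aldh1l1, the folate enzyme whose promoter is widely used to mark astrocytes, had 21.27 TPM (1077 counts) in replicate 2 and 29.13 (1102 counts) in replicate 1. Cbs, the cystathionine synthase of homocysteine metabolism, had 15.68 TPM in replicate 2 and 16.05 in replicate 1. Etnppl, which breaks down phosphoethanolamine, had 6.09 TPM in replicate 2 and 5.85 in replicate 1. Plcd4, a phospholipase C, had 6.04 TPM (262 counts, bounds 5.271 to 7.51) in replicate 2 and 5.51 (258 counts, bounds 4.894 to 6.566) in replicate 1. The last pair were thus present at levels similar to Atp13a4.

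All 3 of the other intracellular proteins were high. Ndrg2, a cytoplasmic protein of astrocytes, had 441.3 TPM (15267 counts, bounds 419.2 to 441.7) in replicate 2 and 416.6 (14316 counts, bounds 397.8 to 417.1) in replicate 1. Fam107a, an actin-associated protein, had 127.5 TPM in replicate 2 and 123.8 in replicate 1. S100b, a calcium-binding protein that some oligodendrocyte lineage cells also make, had 85.49 TPM (2231 counts, bounds 79.01 to 85.85) in replicate 2 and 91.35 (2294 counts, bounds 84.38 to 91.57) in replicate 1.

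The transcriptional regulators were of moderate level. Id4, an inhibitor of basic helix-loop-helix factors, had 32.19 TPM (2276 counts, bounds 29.79 to 32.35) in replicate 2 and 29.43 (2002 counts, bounds 27.11 to 29.57) in replicate 1. Id3, of the same family, had 16.42 TPM (344 counts, bounds 14.39 to 18.21) in replicate 2 and 19.45 (386 counts, bounds 17.07 to 21.39) in replicate 1. The ratio of Id4 to Id3 was therefore 1.96 in replicate 2 and 1.51 in replicate 1. Sox9, the factor that directs astrocyte fate and stays on in mature astrocytes, had 11.54 TPM (878 counts, bounds 10.39 to 11.86) in replicate 2 and 10.39 (761 counts, bounds 9.308 to 10.72) in replicate 1.

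The animals were set against each other on counts. The log2 difference is replicate 2 minus replicate 1 in CPM (counts scaled by library size), with TMM factors, over the 14122 genes whose mean count reached 50. The counting SE of that difference covers sampling of reads only and ranged from 0.0105 (Sparcl1) to 0.127 (Plcd4), with a median of 0.0492. Of the 33 genes, 13 were higher in replicate 2 and 20 lower, against 45.6% and 54.4% of all measured genes, and with spike-in scaling 30 were higher, against 88.1% of all. The median difference of the list was -0.07, against -0.02 over all measured genes, and with spike-in scaling 0.21 against 0.25. Spike-in scaling shifts every gene alike, so the gap between the list and all genes is the same on both scales by construction.

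Past 1.2-fold there were 3 of the 33 genes, all lower in replicate 2, against 27.4% of all measured genes (14.3% higher and 13.1% lower). With spike-in scaling the direction turned: 13 of the 33 lay past 1.2-fold higher in replicate 2 and 0 lower, against 48.1% and 3.03% of all measured genes. With TMM scaling, 19.1% of the 10051 genes within the range of counts of the list lay past 1.2-fold in either direction. Past 1.5-fold and past 2-fold there were 0 of 33, against 6.05% and 1.25% of all measured genes. The median absolute log2 difference was 0.114 for the list, 0.149 over all measured genes and 0.124 over genes of the same depth. An interval of 1.96 counting SE left out 0 for 18 of the 33 genes (13 lower and 5 higher, namely Cbs, Ttyh1, Slc4a4, Sparcl1 and Gpr37l1), against 47.2% of measured genes, and credibility bounds did not overlap for 10, against 19.8%. As shares of the 33 these were 54.5% and 30.3%, and neither was set against genes of the same depth. By their bounds, only Htra1 and Bmpr1b of the 10 were lower in replicate 2, and the rest were higher. Ndrg2 was higher by its bounds but lower in counts, at -0.04.

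The 3 genes past 1.2-fold came from different roles. Htra1 had a log2 difference of -0.43 (counting SE 0.0393), or 1.35-fold lower in replicate 2. It was the only one of the 33 that lay past 1.2-fold when counts were scaled to library totals. Id3 followed at -0.30 (counting SE 0.107) and Gjb6 at -0.28 (counting SE 0.0611). With spike-in scaling the values of Htra1, Id3 and Gjb6 were -0.16, -0.03 and -0.0037, and these were the only 3 of the 33 below 0. Bmpr1b, just inside 1.2-fold, had -0.25 (counting SE 0.0739), and 0.03 with spike-in scaling. As a ratio of TPM, 4 genes lay past 1.2-fold, Aldh1l1 (-0.45), Slc7a10 (0.40), Bmpr1b (-0.39) and Htra1 (-0.32), so Htra1 was the 1 gene past it in both TPM and TMM-scaled counts. On the positive side the largest value in counts was that of Cbs, 0.22 (counting SE 0.091), followed by Slc7a10 with 0.16.

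The remaining genes described in full differed little. Aqp4 had a log2 difference of -0.14 (counting SE 0.0394) and Gja1 of -0.05 (counting SE 0.0289), both positive with spike-in scaling (0.14 and 0.23). The abundant Sparcl1, Ndrg2 and Ttyh1 had 0.03 (counting SE 0.0105), -0.04 (counting SE 0.0168) and 0.12 (counting SE 0.0207). Slc4a4, Gpr37l1, Acsbg1, Id4 and Sox9 had small positive values of 0.09, 0.07, 0.07, 0.05 and 0.07, with counting SE of 0.0247, 0.0336, 0.0373, 0.0442 and 0.0715. For S100b, Chrdl1, Plcd4, Cldn10 and Atp13a4 the values were -0.18, -0.18, -0.11, -0.10 and -0.10, with counting SE of 0.0429, 0.1, 0.127, 0.0993 and 0.118. The last 4 of these genes had 258 to 427 counts in a library and differed by no more than 1.96 counting SE.

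**Figure D2:**
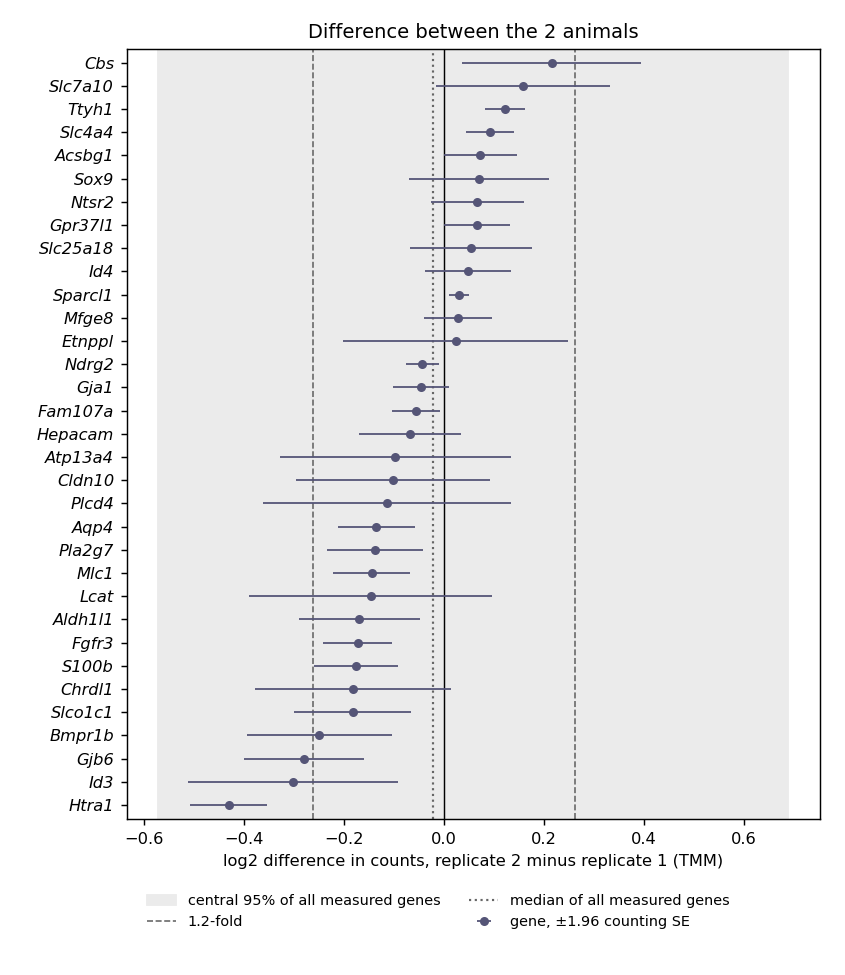
Log2 difference in counts, replicate 2 minus replicate 1, for each of the 33 genes with bars of 1.96 counting SE. The grey band holds the central 95% of 14122 measured genes (-0.57 to 0.69), the dashed lines mark 1.2-fold, and the dotted line is the median of all measured genes; with this TMM scaling only Htra1, Id3 and Gjb6 lie beyond a dashed line, and with spike-in scaling 13 other genes do.

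Levels in TPM did not always move with counts. For 9 of the 33 genes the log2 difference in TPM had the opposite sign to that in counts. In the 6 genes with 1 annotated transcript the TPM difference exceeded the count difference by a median of 0.08. Beyond that offset, 9 genes departed by more than 0.1. Neither count of 9 is set beside a share over all measured genes, so both describe the list only. Aldh1l1 departed most, by -0.37: its TPM difference was -0.45 and its count difference -0.17 (counting SE 0.0618). Cbs followed at -0.33, Bmpr1b at -0.23, Fgfr3 at -0.14 and Chrdl1 at -0.13. On the other side stood Plcd4 at 0.17, Slc7a10 at 0.16, Atp13a4 at 0.13 and Gjb6 at 0.10. These genes had several transcripts whose shares differed between the animals, so their TPM and their counts are not interchangeable.

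The 33 genes had 200 annotated transcripts in GENCODE M21, from 1 to 18 (Ttyh1) per gene. Their shares were read as the percent of the gene's TPM in the first transcript table and again in the second transcript table, which came from another quantification of the same libraries. The leading transcript was the same in both tables for 29 genes and differed in Etnppl, Ttyh1, Htra1 and Cbs. Protein-coding transcripts held a median of 97.7% of a gene's TPM in the first table and 96.8% in the second, against 90.8% and 87.6% over 12569 detected protein-coding genes. This count includes genes whose annotation holds protein-coding transcripts alone.

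**Figure D3:**
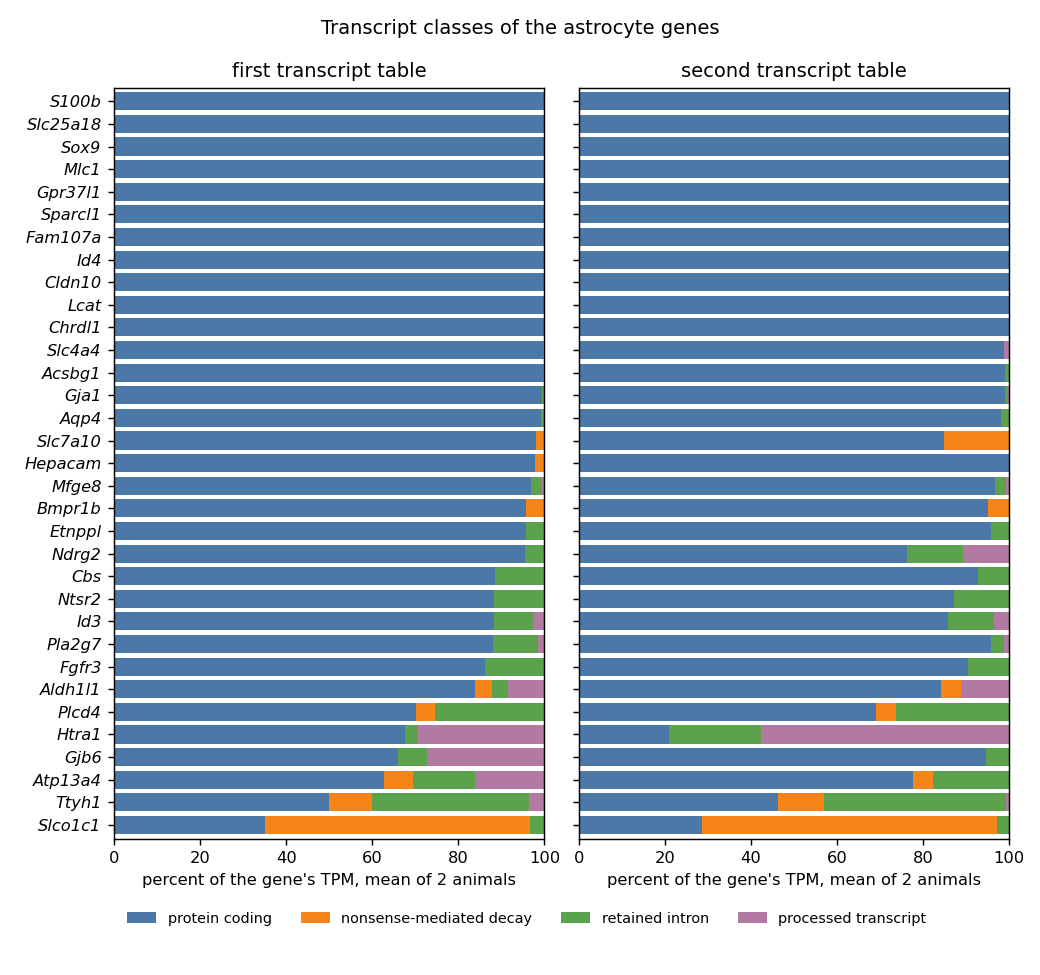
Percent of each gene's TPM in 4 classes of transcript, as the mean of both animals, in the first (left) and second (right) transcript table, ordered by the coding share in the first. Most genes are blue (protein coding) throughout, while Slco1c1, Ttyh1, Atp13a4, Htra1 and Plcd4 have under 80% in both tables; Gjb6 is low in the first only.

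For 5 genes protein-coding transcripts held under 80% in both tables. The share of all detected protein-coding genes under that limit is not given here, so the count describes the list only. Slco1c1 stood out, with a leading transcript, Slco1c1-202, that is annotated as a target of nonsense-mediated decay. That transcript held 68.59% of the gene's TPM in replicate 2 and 53.84% in replicate 1 in the first table, and 60.3% and 51.6% in the second. Ttyh1 had retained-intron transcripts beside its coding ones: the 417-base Ttyh1-211 held 17.88% in replicate 2 and 18.29% in replicate 1, and 22.2% and 18.7% in the second table, where it led by the mean of both animals. In the first table the coding Ttyh1-202 led with 27.81% in replicate 2 and 24.08% in replicate 1.

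Htra1 was split in opposite ways by the tables. Its coding transcript Htra1-201 held 64.49% in replicate 2 and 70.55% in replicate 1 in the first table, and 21.2% and 20.8% in the second. There the processed transcript Htra1-205 led with 57.8% and 57.6%, against 31.26% and 27.47% in the first. The gene's summed level hardly moved between the tables (ratio of second to first 1.01). Plcd4-204 held 54.45% of Plcd4 in replicate 2 and 71.53% in replicate 1 in the first table, and 53.5% and 42.5% in the second. Atp13a4-208 held 45.36% of Atp13a4 in replicate 2 and 67.59% in replicate 1 in the first table, and 73.7% and 81.8% in the second. Both genes had few counts (258 to 303 in a library), and their splits differed as much between tables as between animals.

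In the first table the leading share differed most between animals in Cbs and Aldh1l1. Aldh1l1-201 held 76.31% in replicate 2 and 51.33% in replicate 1, and 72.6% and 54.0% in the second table. The 400-base processed transcript Aldh1l1-202 held 3.08% in replicate 2 and 13.93% in replicate 1, and 0% and 22.4% in the second table. In TPM the coding Aldh1l1-201 itself was close between animals, 16.23 in replicate 2 and 14.95 in replicate 1, so the gap in the gene's TPM lay in its short and minor transcripts. In Cbs the tables named different coding transcripts: Cbs-202 led in the first with 53.58% in replicate 2 and 13.83% in replicate 1, and Cbs-201 led in the second by the mean of both animals, with 12.7% and 54.5%. The split between the main coding transcripts of Cbs is therefore not resolved, whereas the minor Cbs-207 held 6.74% in replicate 2 and 7.52% in replicate 1, and 5.21% and 5.85% in the second table.

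Short transcripts also weighed on Gjb6. The 201-base processed transcript Gjb6-203 held 31.53% of the TPM of Gjb6 in replicate 2 and 23.09% in replicate 1 in the first table, and 0% in both libraries in the second. The coding Gjb6-201 held 57.27% and 64.89% in the first, and 82.5% and 77.1% in the second. Summed over its transcripts the gene had 24.98 TPM in replicate 2 and 31.08 in replicate 1 in the second table, a ratio to the first table of 0.656 that was the lowest of the 33. For the list as a whole that ratio had a median of 0.868, against 0.9 over detected protein-coding genes, and 25 of the 33 genes were lower in the second table. Slc7a10 had the highest ratio, 1.16, with Slc7a10-201 at 73.00% in replicate 2 and 80.45% in replicate 1 in the first table, and at 41.0% and 61.9% in the second. The 419-base Slc7a10-204 took 27.00% and 12.02% of Slc7a10 in the first and 36.0% and 24.1% in the second. By the first table, 5 of the 33 genes had 10% or more of their TPM in transcripts under 500 bases (against 15.3% of detected protein-coding genes), namely Gjb6, Slc7a10, Ttyh1, Cbs and Slc4a4. In the second, 7 genes had (against 20.4%), of which Slc7a10, Ttyh1 and Slc4a4 were the 3 shared with the first.

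Other splits were between coding transcripts. Aqp4-201 led with 59.90% in replicate 2 and 65.53% in replicate 1, and 67.1% and 75.0% in the second table, followed by the shorter Aqp4-205 with 27.35% and 23.98%. The second table gave Aqp4-205 22.1% in replicate 2 and 8.29% in replicate 1. In the first table Ndrg2 was shared by 2 coding transcripts of nearly equal length, Ndrg2-202 with 47.32% in replicate 2 and 47.36% in replicate 1 and Ndrg2-201 with 41.37% and 45.34%. In the second they held 38.55% and 41.68%, and 28.61% and 29.9%. There the 508-base processed Ndrg2-208 held 11.92% and 9.28%, and the 427-base retained-intron Ndrg2-206 10.94% and 10.64%. Etnppl was divided between Etnppl-203 (46.21% in replicate 2, 55.61% in replicate 1) and Etnppl-201 (46.97% and 42.79%), and the second table put Etnppl-201 first by a mean of 49.4% to 46.5%. Fgfr3-201 led Fgfr3 with 55.72% in replicate 2 and 38.06% in replicate 1, and 44.6% and 34.1% in the second table. Slc4a4-207 held 59.54% of Slc4a4 in replicate 2 and 61.15% in replicate 1, and Slc4a4-208 18.37% and 17.62%. By the second table these were 49.81% and 50.69%, and 24.1% and 23.65%. For Fam107a and Pla2g7 the leading share, as the mean of both animals, passed 70% in the first table only: Fam107a-201 held 72.05% in replicate 2 and 77.27% in replicate 1, and 64.0% and 66.8% in the second table. Pla2g7-201 held 80.37% of Pla2g7 in replicate 2 and 85.36% in replicate 1, and 65.2% and 72.8% in the second table.

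Transcript starts were taken only from coding and nonsense-mediated decay transcripts of 500 bases or more with a complete annotated start. In 3 of the genes, 2 or more such starts each held at least 10% of these transcripts' TPM in both libraries and tables. Among those left out, Htra1-205, Ttyh1-211 and the 371-base Slc4a4-206, with other annotated starts, each held over 10% of their gene's TPM throughout. Cldn10 was read from 2 starts 66824 bases apart. Its upstream start held 59.6% in replicate 2 and 60.7% in replicate 1 in the first table, and 75.8% and 74.2% in the second. Chrdl1 had starts 4085 bases apart, of which the upstream one held 57.8% in replicate 2 and 55.5% in replicate 1, and 59.0% and 61.4% in the second table. The split of Chrdl1 was thus close between animals and tables, and that of Cldn10 between animals only.

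Bmpr1b had 3 starts, the middle one 186949 bases and the downstream one 237690 bases from the first. In the first table the most upstream start held 28.5% in replicate 2 and 37.0% in replicate 1, the middle start 61.6% and 42.8%, and the downstream start 9.96% and 20.2%. The second table gave 32.8% and 43.5%, 53.2% and 40.8%, and 14.1% and 15.7% for the same starts. In both tables replicate 2 had the larger share at the middle start and the smaller at the upstream one. In TPM the middle start had 5.75 in replicate 2 and 5.25 in replicate 1, and the upstream start 2.66 and 4.54. The promoter of that middle start, printed above, holds 2 SOX core matches and 2 overlapping TATA matches. The downstream one holds 1 SOX core match and 0 TATA matches. In the middle one the TATA letters lie at the end of the 250 bases farthest from the start. Any link of these matches to start use was not tested.

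**Figure D4:**
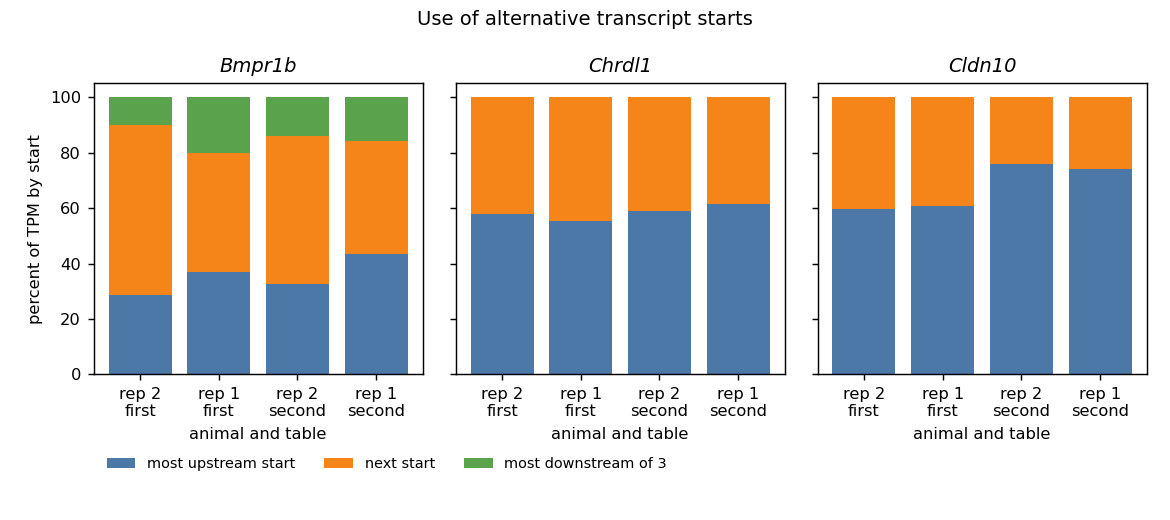
Percent of the TPM of Bmpr1b, Chrdl1 and Cldn10 by transcript start, stacked from the most upstream start at the bottom, in replicate 2 and replicate 1 of the first and then of the second table. The middle start of Bmpr1b is larger in replicate 2 than in replicate 1 in both tables (61.6% against 42.8%, and 53.2% against 40.8%).

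Exons of 8 of the 33 genes overlap exons of another annotated gene, all 8 with a gene on the opposite strand. The share of all genes with such an overlap is not given here. Of the 8, each is described for its own level only. Aldh1l1 also shares 105 bases with a gene on its own strand, the lincRNA Gm45901 (0.09 TPM in replicate 2, 0.39 TPM in replicate 1). The longest overlap, 2101 bases, is that of Plcd4 with Zfp142, which had 14.86 TPM in replicate 2 and 15.71 in replicate 1. Slc7a10 shares 377 bases with Lrp3 (40.72 TPM in replicate 2, 37.44 TPM in replicate 1), and Slc25a18 shares 32 bases with Atp6v1e1 (272.0 and 268.6 TPM). The kit was stranded, but no source used here says that strand entered the counting, so the levels of Plcd4 and Slc7a10 are uncertain. The other overlapping genes, next to Aldh1l1, Fgfr3, Id4, Pla2g7 and Ttyh1, are non-coding and had at most 2.53 TPM in either library.

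Other genes known from astrocytes were read for comparison. All 40 of that list were detected at 1 TPM or more in both animals, with a median of 22.59 TPM in replicate 2 and 25.63 in replicate 1. The highest were Glul (glutamine synthetase) with 1058 TPM in replicate 2 and 1109 in replicate 1, Slc1a2 (the glutamate transporter GLT-1) with 804.5 and 846.4, Apoe with 806.7 and 841.8, Clu with 415.7 and 408.5, and Aldoc with 378.7 and 342.0. The lowest were Slc14a1, a urea transporter, with 4.11 TPM in replicate 2 and 4.07 in replicate 1, Ranbp3l with 5.38 and 4.51, and Rfx4 with 6.19 and 5.91. Of the 40, 13 were higher in replicate 2 and 27 lower, against 45.6% and 54.4% of all measured genes. Past 1.2-fold lay 2 higher and 5 lower, against 14.3% and 13.1% of all measured genes. The median log2 difference of the 40 was -0.07, and 0.20 with spike-in scaling. The largest differences were those of Dio2, the deiodinase that activates thyroid hormone, at -0.75 (counting SE 0.0416), Dbx2 at -0.52 (counting SE 0.119) and Ppp1r3c, a glycogen-targeting subunit, at -0.45 (counting SE 0.0579). All 3 values lay below the -0.43 of Htra1, the lowest of the 33 genes, those of Dbx2 and Ppp1r3c by less than their counting SE. With spike-in scaling the values of Dio2, Dbx2 and Ppp1r3c were -0.47, -0.25 and -0.18. The others past 1.2-fold, named after their values were seen, were Mertk and Hopx, lower at -0.30 each, and Slc6a9 and Paqr6, higher at 0.39 and 0.29.

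Genes that astrocytes raise when they become reactive were low. Of 18, 8 were detected in both animals, and the list had a median of 0.815 TPM in replicate 2 and 1.055 in replicate 1. Gfap, the intermediate filament of astrocytes and also a gene of the 40 above, was the highest with 69.62 TPM in replicate 2 and 69.23 in replicate 1. The lowest was Tgm1, listed at 0 TPM in replicate 2 and at 0.06 TPM in replicate 1, where 3 counts in a transcript of 1 kb are worth 0.16 and 0.166 TPM. In this list 10 genes had enough counts for a difference. Past 1.2-fold lay 2 of them, both lower in replicate 2, against 13.1% of all measured genes that were lower by as much. The 2 were Hspb1, a small heat shock protein, at -1.31 (counting SE 0.196) and Osmr, the oncostatin M receptor, at -0.57 (counting SE 0.226), named after their values were seen. Genes of radial glia and of the ependymal cells that line the ventricles were also low, with a median over 10 genes of 2.46 TPM in replicate 2 and 2.565 in replicate 1, between Fabp7 (19.91 and 21.70 TPM) and Pifo (0.20 and 0.62 TPM).

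**Figure D5:**
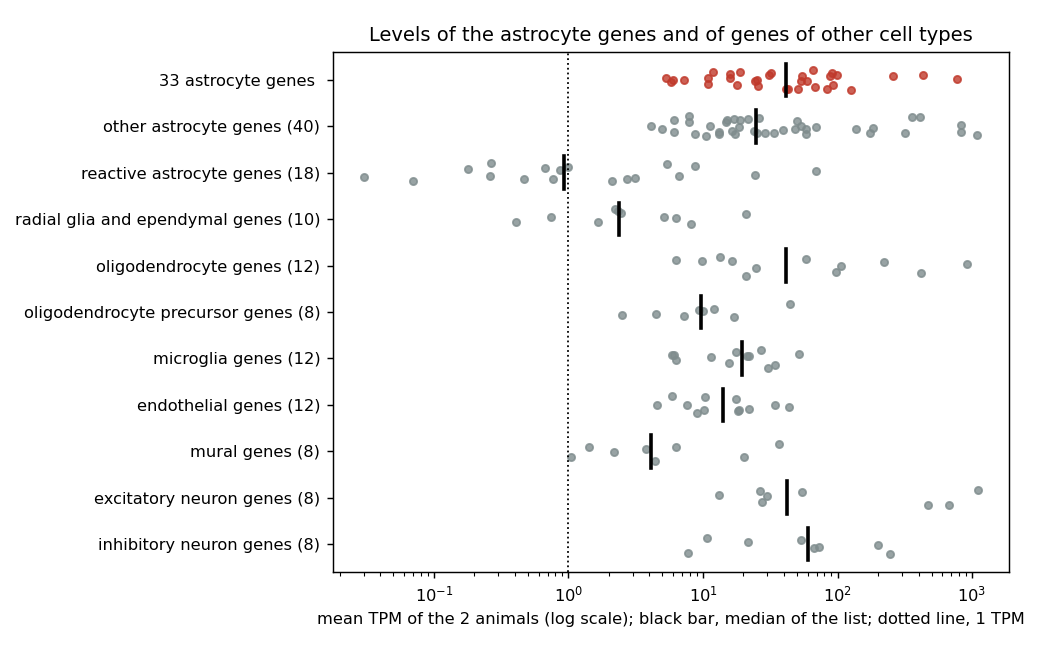
Mean TPM of the 2 animals (log scale) for the 33 astrocyte genes in red and for genes of 10 comparison lists in grey, with the median of each list as a black bar and 1 TPM as a dotted line. The 33 genes lie wholly above the line, while the reactive astrocyte list has its median just below it.

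Because the tissue is a mixture, markers of the other cell types were read beside the astrocyte genes. The 12 oligodendrocyte genes had a median of 44.28 TPM in replicate 2 and 39.45 in replicate 1, from Mbp (950.5 and 884.3 TPM) down to Opalin (8.78 and 3.80 TPM), whose log2 difference was 1.06 (counting SE 0.146). The 8 excitatory neuron genes had medians of 45.7 and 39.6 TPM, from Camk2a (1167 and 1048 TPM) to Emx1 (16.09 and 10.01 TPM). For the 8 inhibitory neuron genes the medians were 60.99 and 60.15 TPM, from Gad1 (249.4 and 244.7 TPM) to Lhx6 (7.28 and 8.31 TPM). The medians of these 3 lists lay near that of the 33 genes or above it, with inhibitory neuron genes the highest.

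The microglia, vascular and precursor lists had lower medians. Microglia genes had 19.33 TPM in replicate 2 and 19.06 in replicate 1, with Aif1 (5.68 and 6.11 TPM) the lowest. Endothelial genes had 13.75 TPM in replicate 2 and 12.06 in replicate 1, between Slc2a1 (39.44 and 47.86 TPM) and Tek (5.25 and 3.80 TPM). Oligodendrocyte precursor genes had 9.57 TPM in replicate 2 and 9.845 in replicate 1, between Olig1 (43.52 and 45.25 TPM) and Neu4 (2.49 and 2.49 TPM). Mural genes had 4.515 TPM in replicate 2 and 3.695 in replicate 1, between Vtn (40.73 and 32.26 TPM) and Kcnj8 (0.98 and 1.10 TPM). All but Kcnj8 of the genes in these 4 lists were detected in both animals. The median log2 difference of these lists was -0.002 for microglia, -0.17 for endothelial, -0.06 for precursor and 0.22 for mural genes, against -0.07 for the 33 astrocyte genes. Spike-in scaling moved them to 0.27, 0.11, 0.21, 0.50 and 0.21. The part of the make-up of the tissue piece in the values of the 33 genes was not tested.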

How the data were processed

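Ribosome-reduced total RNA of 2 libraries in 1 group was analysed. Per the deposited readme, the build was mm10 with GENCODE M21; aligner and quantification tools: not given in the sources used here. Expected counts per gene and per transcript in the first tables are deposited estimated counts, not normalized by the authors, and were rounded to whole numbers. TPM was deposited by the authors in both sets of tables, scaled over all features. Transcript shares, in percent of the gene's TPM, were deposited by the authors, and the credibility bounds are deposited scores. The second transcript table holds the authors' estimated counts and TPM, summed here per gene. Reads of the hybrid were assigned to the reference genome, so CAST/EiJ reads may be counted less often.

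Counts were scaled with TMM factors in edgeR 4.0.16 (R 4.3.3, prior count 1), and the ratio of the scales of replicate 2 to replicate 1 was 1.1. The alternatives were DESeq2 1.42.0 size factors (1.094), library totals (1.068), spike-in counts (0.9078, from 68108 counts in replicate 2 and 75029 in replicate 1), the second table, other filters and other prior counts. The counting SE takes both counts as Poisson. The script that computes differences was tested on simulated data. With 1 library per animal no test was made, and intervals cover counting error only. Replicates are separate by their labels alone, so the spread may be technical.

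Every gene of the list is named. Full statistics went to the markers, to the highest and lowest gene of each role, and to the 4 with the largest difference. Transcripts were described where the leading one held under 70% in either table or differed between tables. From the other astrocyte genes the 5 highest, 3 lowest and 3 most different were named, and from other lists the highest and lowest, except for 1 gene that is not reported here. The genes and lists were chosen with earlier results of these data known. Promoter sequences are from RefSeq (GRCm38.p6), and exon overlaps and transcript starts are from GENCODE M21. Starts within 500 bases were joined. Figures were drawn in Python.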

Additional observations from a re-analysis of the deposited data

How the results depend on the processing

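All 33 genes were detected under each alternative tried (0.5 or 5 TPM, the second table, and each animal alone). The median TPM of the list, 41.38 over both animals, was 28.03 in the second table and 85.73 when TPM was scaled over nuclear protein-coding genes alone, and between 40.87 and 41.34 with 1 animal left out. The median log2 difference between animals, -0.07, was 0.21 with spike-in scaling and 0.0432 as a ratio of TPM; 30 and 20 genes were then higher in replicate 2, against 13. The count past 1.2-fold, 3 lower in replicate 2, was 1 with library totals and 13 with spike-in scaling, all 13 higher (48.1% of measured genes were). By the ratio of TPM it was 4, of which 1, Htra1, was among the 3. DESeq2 size factors and the second table's counts gave 3 too, in the second table Htra1, Gjb6 and Bmpr1b, with medians of -0.061 and -0.0714. By the second table, list medians were 20.75 TPM for other astrocyte, 1.31 for reactive astrocyte, 37.28 for oligodendrocyte, 7.99 for precursor, 15.47 for microglia, 11.72 for endothelial, 51.78 for inhibitory neuron and 3.60 for radial glia and ependymal genes. With 1 animal left out they ranged from 19.06 to 19.33 for microglia, 12.06 to 13.75 for endothelial and 2.46 to 2.565 for radial glia and ependymal genes. Of the single genes, 24 had a TPM in the second table that moved by more than the spread between the animals, and 20 a leading transcript share that did; their causes were not tested. No paired analysis was possible because the labels give 1 group. Genes of low depth limit the precision: at the lowest counts of the list the counting SE was 0.127 on the log2 scale.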
